A study of Mus musculus with 15 samples.

Results

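RNA was sequenced from 105K tumors grown in C57BL/6J mice, and 41 genes that mark macrophages and dendritic cells were followed among the 24891 genes of the deposited table. The genes were chosen by name, by their known use as markers of these cells, and all 41 are in the table. 105K cells lack Tsc2 and were derived from a kidney tumor of a Tsc2+/- animal, so every group shares this loss. The 15 libraries form 5 groups of 3. 2 of the groups are bulk tumor, labelled sh-NC (a non-targeting shRNA) or sh-B7-H3 (1). The other 3 groups are sorted cells, which were labelled with the control sh-NC, with sh-B7-H3 (1), or with a further hairpin called sh-B7-H3 (2). Both numbered hairpins target B7-H3, the checkpoint protein encoded by Cd276. Per the study's methods the shRNA lines are pools selected with puromycin, not clones, the mice are male, and the sorted fraction is what passed a magnetic column that held back labeled host cells. No label gives an age, and no label says that replicates came from separate mice, so the spread between libraries may be partly technical.

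Macrophages arise from monocytes or from embryonic precursors and depend on the receptor CSF1R, which binds CSF1 and IL-34. The transcription factor PU.1, encoded by SPI1, sets up their gene program together with Fc receptors, complement C1q and scavenger receptors. Dendritic cells carry antigen to lymph nodes, where CCR7 guides them to T cells, and they use FLT3 and ZBTB46. In tumors these cells can present antigen, or they can hold T cells back, for example through arginase.

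All values are FPKM, a measure of fragments per gene length and library size, and were rescaled between libraries, written here as scaled FPKM, because the scaling factors ranged from 0.65 to 1.18 and 1 RNA, MIR6236, held 6.01% to 79.7% of a library's summed FPKM. Read totals are not in the file, and the relative depth read from the lowest values ranged from 0.468 to 1. Cd276 itself did not follow every label. Its level was 20.8, 23.2 and 23.5 scaled FPKM in bulk sh-NC and 22.3, 17.8 and 24.4 in bulk sh-B7-H3 (1). In sorted cells it was 34.0, 20.0 and 17.3 with sh-NC, 7.29, 14.0 and 11.5 with sh-B7-H3 (1), and 23.3, 25.4 and 25.7 with sh-B7-H3 (2). The sorted sh-B7-H3 (1) libraries lay below all 3 sorted sh-NC libraries, with a log2 fold change of -1.04 (SE 0.29, limma adjusted p = 0.0547), while the bulk sh-B7-H3 (1) and sorted sh-B7-H3 (2) libraries overlapped their controls. Groups are therefore named by their labels, and a direction below is one between libraries so labelled.

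1 library stands apart. The sorted library labelled sh-B7-H3 (2), replicate 1, held macrophage genes near the level of bulk tumor, and results that include it are given with and without it. Of the 41 genes, 37 reached 1 scaled FPKM in it, against 9 to 15 in the other 8 sorted libraries and 34 to 36 in the bulk libraries. The map of all genes by library shows this single column.

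**Figure D1:**
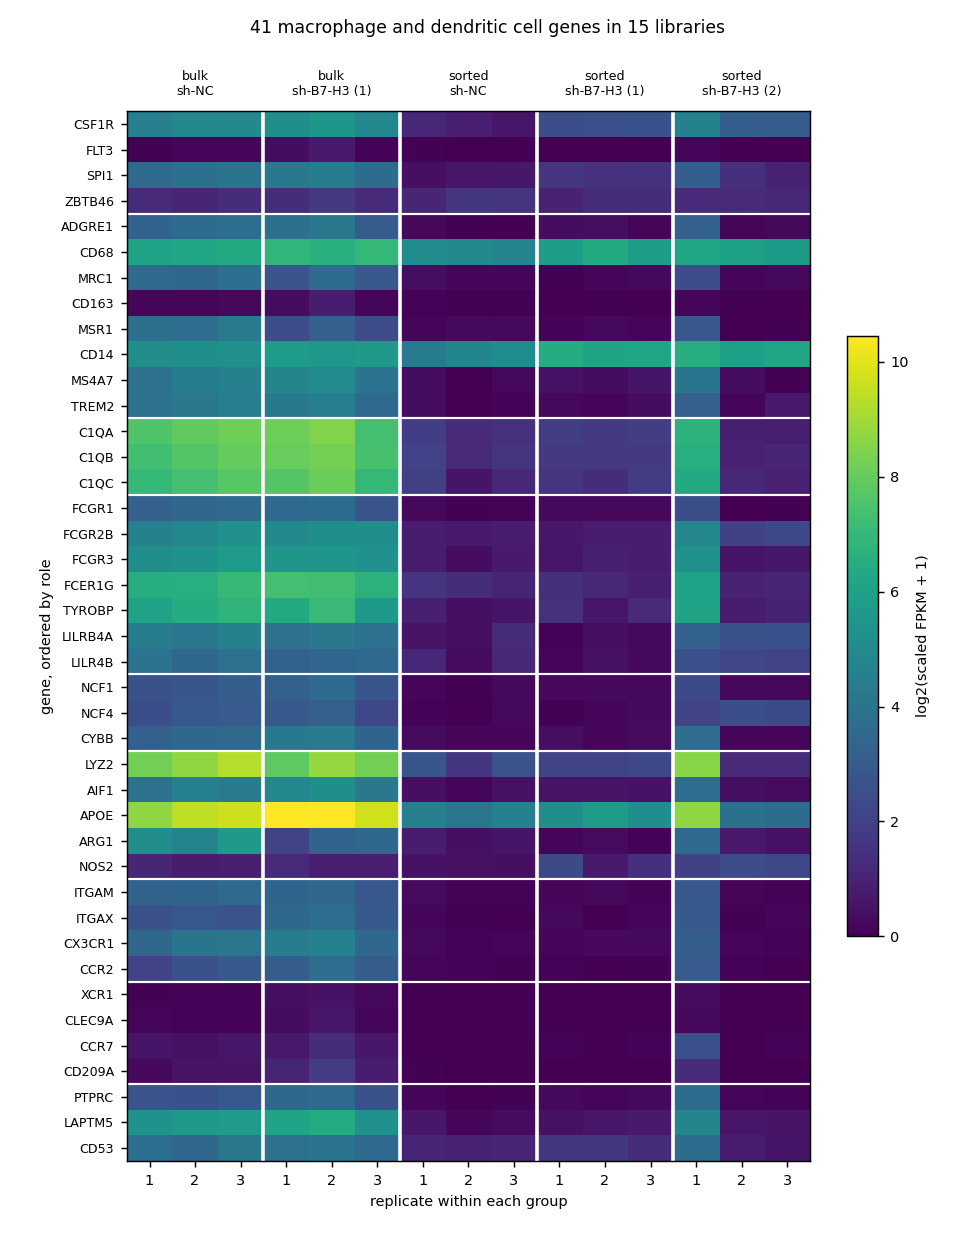
The heatmap plots log2(scaled FPKM + 1), as color, for 41 genes (rows, in blocks by role) in 15 libraries (columns, 3 replicates for each of the 5 groups). Bulk columns are bright for most genes, sorted columns are dark apart from CD68, CD14 and APOE, and replicate 1 of sorted sh-B7-H3 (2) resembles the bulk columns.

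Short stretches of DNA before the transcript starts are shown because SPI1 encodes PU.1. In RefSeq promoters of build GRCm38.p6, 29 of the 41 genes had an entry. The 250 bases before each start were searched on both strands for a PU.1 core, GAGGAAG. The PU.1 core was in 7 of the 29 genes (24.1%) and in 12% of the 27025 genes with an entry. A match is a string of letters and not a shown site. In the lines below capitals mark the match, and each sequence reads 5′ to 3′ on the strand of its gene.
ITGAM (chr7:128062546-128062572, plus strand): ttttctcccgGAGGAAGgctacagagg
TREM2 (chr17:48346350-48346376, plus strand): gcctcctttcCTTCCTCcctccctcac
FCGR1 (chr3:96294009-96294035, minus strand): tggcaacttcCTTCCTCttttctaatc
LAPTM5 (chr4:130913267-130913293, plus strand): cagcctgtggCTTCCTCttttttgttc
The other genes with the PU.1 core were C1QC, FCGR3 and MRC1.

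Bulk tumor was compared with sorted cells first, since this shows which of the genes were lower after host cells were removed. With sh-NC, 32 of the 34 genes tested were higher in bulk tumor and none was lower, where 10.4% of all 11418 genes tested were higher. Of the 34 genes, 21 were below 1 scaled FPKM in all sorted sh-NC libraries and entered the test only through bulk tumor. With these, 25 of the 34 needed the bulk libraries to pass the filter, and all 25 were called. The count therefore describes the genes that passed the filter and is not support for a difference. With no filter 38 of the 41 genes passed, and the share of all genes in that fit is not given. In bulk tumor fewer cells of a type and less RNA per cell cannot be told apart. The C1q chains, which start the classical complement pathway, were among the largest: C1QA was 190.0, 237 and 285 scaled FPKM in bulk sh-NC and 2.73, 1.38 and 1.81 in sorted sh-NC, a log2 fold change of 6.33 (SE 0.21, limma adjusted p = 5.31e-06). LYZ2, lysozyme of myeloid cells, was 296, 423 and 631 in bulk and 6.0, 2.11 and 5.46 in sorted cells (log2 6.37, SE 0.37, limma adjusted p = 1.87e-05). PTPRC, the leukocyte surface protein CD45, was 5.47, 5.27 and 6.36 in bulk sh-NC and 0.145, 0.0168 and 0.044 in sorted sh-NC (log2 2.65, SE 0.12, limma adjusted p = 5.97e-06). None of these groups overlapped.

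Not every gene was lower in sorted cells. Over the 41 genes, the sorted sh-NC mean was a median of 1.47% of the bulk sh-NC mean, and 32 genes were below 5%. The exceptions above 25% were ZBTB46 (127%), CD14 (72.8%), CD68 (41.7%) and NOS2 (39.9%). CD14, a co-receptor for bacterial lipopolysaccharide, was 35.3, 35.8 and 36.6 scaled FPKM in bulk sh-NC and 18.7, 26.7 and 33 in sorted sh-NC (log2 0.48, SE 0.20, limma adjusted p = 0.133). CD68, a lysosomal glycoprotein used as a macrophage stain, was 63.6, 71.2 and 79.6 in bulk and 33.3, 31 and 25 in sorted cells (log2 1.24, SE 0.15, limma adjusted p = 0.00137), and its groups did not overlap. ZBTB46, a transcription factor of classical dendritic cells, was 1.42, 1.21 and 1.54 in bulk sh-NC and 1.15, 2.13 and 2.0 in sorted sh-NC, and these groups overlapped.

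With sh-B7-H3 (1), 32 of 35 genes tested were higher in bulk tumor and 1 was lower, against 21.1% and 17.1% of all 11677 genes. The gene that was lower was CD14, at 52.5, 46.5 and 49.7 in bulk and 86.7, 68.8 and 72.3 in sorted cells labelled sh-B7-H3 (1), a log2 fold change of -0.60 (SE 0.12, limma adjusted p = 0.00924). All 3 sorted libraries lay above all 3 bulk libraries. NOS2 and ZBTB46 did not pass. Here too 21 of the 35 genes were below 1 in all 3 sorted libraries, and 24 needed the bulk libraries to pass the filter. Of 59 further macrophage and dendritic cell genes from a list of other markers, 42 of 47 tested were higher in bulk sh-NC than in sorted sh-NC, and none was lower. Of all genes tested 10.4% were higher. Only 13 of the 59 reached the filter when sorted sh-B7-H3 (1) was compared with sorted sh-NC. Most of the 47 thus entered through bulk tumor, and the count is a description. The markers of endothelial cells were higher in bulk too (6 of 6 tested, of 7), as were 5 of 7 fibroblast markers, and the epithelial markers were not (0 of 6). The endothelial markers were below 1 scaled FPKM in every sorted sh-NC library. They entered the test only through bulk tumor, so their count is a description. The summed endothelial markers were 26.6 to 46.5 scaled FPKM in bulk sh-NC and 0.301 to 0.697 in sorted sh-NC, and the part of these cells in the differences was not tested.

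Within bulk sh-NC, APOE, LYZ2 and the C1q chains held the highest levels per length, with group means of 645.6, 449.9 and 166.5 to 237.3 scaled FPKM. Among the Fc receptors and adaptors, FCER1G, the shared gamma chain, was 91.6, 95.1 and 127 in bulk sh-NC and 1.95, 1.57 and 1.09 in sorted sh-NC, and TYROBP was 63.2, 88.5 and 115 against 0.897, 0.343 and 0.525. FCGR1, the high-affinity IgG receptor, was 8.11, 9.86 and 11.1 against 0.18, 0.035 and 0.0689. MRC1, the mannose receptor, was 11.3, 10.1 and 13.2 in bulk sh-NC and 0.305, 0.106 and 0.139 in sorted sh-NC, and TREM2, a lipid receptor that signals through TYROBP, was 14.2, 16.9 and 21.2 against 0.256, 0 and 0.0619. MS4A7, a tetraspan protein of macrophages, was 13.8, 19.7 and 22.5 against 0.268, 0 and 0.153. CD163, the scavenger receptor for hemoglobin, was low in both, at 0.132, 0.132 and 0.185 against 0.0719, 0 and 0.0195.

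Genes of the oxidase, of integrins and of chemokine receptors also did not overlap between bulk and sorted sh-NC. They entered the test only through bulk tumor, so this is a description. CYBB, the membrane subunit of the NADPH oxidase, was 8.31, 10.6 and 11.3 scaled FPKM in bulk sh-NC and 0.244, 0.147 and 0.127 in sorted sh-NC, and NCF1, its subunit p47phox, was 4.99, 5.86 and 8.03 against 0.13, 0.0331 and 0.152. ITGAM, the integrin CD11b, was 9.07, 9.45 and 10.8 against 0.248, 0.0746 and 0.0734. In GENCODE M21, 65.2% of the 75-base windows of ITGAM are shared with the gene model Gm49368. CX3CR1, the receptor of CX3CL1, was 10.6, 15.6 and 16 against 0.185, 0.0705 and 0.108. AIF1, the calcium-binding protein IBA1, was 14.5, 21.8 and 18.9 against 0.347, 0.115 and 0.397. LAPTM5, a lysosomal protein of blood cells, was 40.0, 48.6 and 54.3 against 0.597, 0.114 and 0.25, and CD53, a tetraspanin of leukocytes, was 13, 9.87 and 17.4 against 1.14, 1.06 and 1.18. In sorted sh-B7-H3 (1), CD53 was 2.28, 2.22 and 1.48, above all sorted sh-NC libraries (log2 0.48, SE 0.14, limma adjusted p = 0.0595).

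In bulk tumor, the libraries labelled sh-B7-H3 (1) differed from sh-NC in 4 of the 34 genes tested. CD14 and CD68 were higher, where 12.8% of all 11800 genes were higher. ARG1 and MSR1 were lower, where 8.52% were lower. Of the 41 genes 7 were not tested because they reached 1 scaled FPKM in fewer than 3 libraries (FLT3, CD163, NOS2, XCR1, CLEC9A, CCR7 and CD209A).

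ARG1, arginase, which breaks down arginine, was 35, 24.7 and 48.7 scaled FPKM in bulk sh-NC and 3.46, 9.02 and 10.6 in bulk sh-B7-H3 (1), with no overlap (log2 -2.16, SE 0.39, limma adjusted p = 0.0131). MSR1, a class A scavenger receptor, was 13.7, 12.2 and 18.4 against 4.6, 8.24 and 4.17, also without overlap (log2 -1.27, SE 0.25, limma adjusted p = 0.0164). The call for MSR1 was lost with all groups in 1 fit (limma adjusted p = 0.110), with the replicate block (0.0522), without replicate 1 of bulk sh-B7-H3 (1) (0.0774) and without replicate 3 of bulk sh-NC (0.0664). Relative to C1QA in the same library, ARG1 was 18.4%, 10.4% and 17.1% in bulk sh-NC and 1.21%, 2.54% and 6.64% in bulk sh-B7-H3 (1). C1QA was 287, 355 and 159 in bulk sh-B7-H3 (1) (log2 0.11, SE 0.30, limma adjusted p = 0.809) and overlapped sh-NC. Of the 3 neutrophil markers tested, S100A8 and S100A9 were lower, as ARG1 was, while MMP9 was not (log2 0.74, SE 0.24, limma adjusted p = 0.0702). S100A8 and S100A9 needed the bulk sh-NC libraries, where they were high, to pass the filter, so this is a description. The summed level of all 7 markers was 7.14 to 11.9 scaled FPKM in bulk sh-NC and 3.75 to 7.19 in bulk sh-B7-H3 (1), and its part in the ARG1 difference was not tested.

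CD14 rose from 35.3, 35.8 and 36.6 scaled FPKM in bulk sh-NC to 52.5, 46.5 and 49.7 in bulk sh-B7-H3 (1) (log2 0.45, SE 0.08, limma adjusted p = 0.0140), and CD68 rose from 63.6, 71.2 and 79.6 to 118, 97.4 and 124 (log2 0.65, SE 0.13, limma adjusted p = 0.0176). Neither gene overlapped between the groups. With FPKM as deposited neither passed (limma adjusted p = 0.504 for CD14 and 0.188 for CD68), and CD14 did not pass with all groups in 1 fit (0.0931). CSF1R was 21.1, 27.4 and 29.3 in sh-NC and 35.6, 45.1 and 27.5 in sh-B7-H3 (1) (log2 0.44, SE 0.20, limma adjusted p = 0.142). ADGRE1, the macrophage surface protein F4/80, was 8.71, 11.5 and 12.7 against 13.6, 17.3 and 7.28, and it overlapped (log2 0.14, SE 0.29, limma adjusted p = 0.751). PTPRC was 10.1, 11.1 and 5.03 in bulk sh-B7-H3 (1) (log2 0.48, SE 0.26, limma adjusted p = 0.209). ITGAX, the integrin CD11c of dendritic cells, was 5.09, 6.4 and 5.51 against 10.6, 12.4 and 6.89 without overlap, yet it missed the threshold (log2 0.69, SE 0.20, limma adjusted p = 0.0510). APOE, the lipid carrier of macrophages, was 418, 709 and 809 against 1404, 1380.2 and 841 (log2 0.92, SE 0.30, limma adjusted p = 0.0707). CCR2, which draws monocytes to CCL2, was 3.44, 5.08 and 6.56 against 7.52, 12.5 and 7.54, also without overlap (log2 0.75, SE 0.25, limma adjusted p = 0.0709). The remaining genes had log2 fold changes between -0.53 for MRC1 and 0.53 for CYBB.

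The bulk counts depended on single libraries. Replicate 3 of bulk sh-B7-H3 (1) held the lowest PTPRC, ADGRE1, C1QA and TYROBP of its group. Without it 10 genes passed the test, 8 of them higher (CD68, CD14, CYBB, AIF1, APOE, ITGAX, PTPRC and LAPTM5) and 2 lower (ARG1 and MSR1). Of all genes 9.31% were higher in this fit, and the share that was lower is not given. Without replicate 1 of bulk sh-B7-H3 (1), or without replicate 3 of bulk sh-NC, only 1 gene passed (without sh-NC replicate 3 the limma adjusted p of ARG1 was 0.0572). The T cell and cytotoxic markers were also highest in replicates 1 and 2. Their sum over 14 genes in the table was 3.83 to 4.09 scaled FPKM in bulk sh-NC and 7.60 to 28.9 in bulk sh-B7-H3 (1), and 2 of 2 tested (CD3E and CD3G) were higher, which was not tested as a source. Both needed the bulk sh-B7-H3 (1) libraries to pass the filter, so this count is a description. Fibroblast markers summed to 130.2 to 242 in bulk sh-NC and 406 to 824 in bulk sh-B7-H3 (1).

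Of the 59 further macrophage and dendritic cell genes, 49 were tested in bulk tumor. 5 were higher (CCL22, CSF2RA, CSF2RB, CTSS and PLAC8) and 4 were lower (GPNMB, CLEC4E, CD300LB and CHIL3), shares close to the 12.8% and 8.52% of all genes. CHIL3, a chitinase-like protein of alternatively activated macrophages, had a log2 fold change of -1.52 (SE 0.25, limma adjusted p = 0.00888). Of the 10 ligands that feed or attract these cells, 6 were tested. IL34, the other ligand of CSF1R, was 23.6, 27.3 and 31.9 scaled FPKM in bulk sh-NC and 15.5, 14.9 and 9.13 in bulk sh-B7-H3 (1) (log2 -1.03, SE 0.21, limma adjusted p = 0.0180). CX3CL1, the ligand of CX3CR1, rose (log2 1.02, SE 0.20, limma adjusted p = 0.0159). CSF1 had a log2 fold change of -0.51 (limma adjusted p = 0.0959).

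In sorted cells, only a small part of the list was measured above the filter. With sh-B7-H3 (1), 12 genes were tested and 5 were higher, where 9.03% of all 11163 genes were higher, and none was lower. Of the 5, SPI1 was below 1 scaled FPKM in all sorted sh-NC libraries and CSF1R needed the sh-B7-H3 (1) libraries to pass the filter, so the count is a description. With no filter 4 of the 40 genes fitted passed, and the share of all genes in that fit is not given. CSF1R was 1.3, 0.818 and 0.567 scaled FPKM in sorted sh-NC and 4.76, 4.88 and 5.21 in sorted sh-B7-H3 (1) (log2 1.67, SE 0.16, limma adjusted p = 0.000296). CD14 went from 18.7, 26.7 and 33 to 86.7, 68.8 and 72.3 (log2 1.53, SE 0.21, limma adjusted p = 0.00192), and CD68 from 33.3, 31 and 25 to 55.7, 83.1 and 56.1 (log2 1.08, SE 0.19, limma adjusted p = 0.00768). SPI1, the gene of PU.1, was 0.343, 0.535 and 0.614 with sh-NC and 2.11, 1.81 and 1.9 with sh-B7-H3 (1) (log2 0.98, SE 0.12, limma adjusted p = 0.000976). APOE was 22.7, 16.2 and 23.5 against 35, 52 and 33.5 (log2 0.91, SE 0.21, limma adjusted p = 0.0263). These 5 genes did not overlap between the groups. The call for APOE was lost without the filter (limma adjusted p = 0.0603), with all groups in 1 fit (0.567) and with the replicate block (0.131). It was also lost without any 1 of the 3 sh-B7-H3 (1) libraries (limma adjusted p = 0.0557 to 0.0931) or without sh-NC replicate 2 (0.101). The call for SPI1 was lost with all groups in 1 fit (limma adjusted p = 0.0907). Some epithelial markers moved with these genes. EPCAM, KRT18 and KRT19 were higher, 3 of 6 tested, while CDH1 (log2 -0.35) and PAX8 (log2 -0.41) were lower without passing. The 6 summed to 817 to 999 scaled FPKM in sorted sh-NC and 1389.9 to 1607 in sorted sh-B7-H3 (1). None of the 7 fibroblast markers tested passed, and no T cell, B cell, neutrophil or endothelial marker reached the filter. The part of the epithelial markers in these differences was not tested.

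ADGRE1 and PTPRC stayed at low levels in the same cells. ADGRE1 was 0.182, 0.0565 and 0.0185 scaled FPKM with sh-NC and 0.266, 0.293 and 0.125 with sh-B7-H3 (1), below the filter. C1QA was 2.73, 1.38 and 1.81 against 2.85, 2.39 and 2.69 (log2 0.31, SE 0.17, limma adjusted p = 0.333). PTPRC was at most 0.158 in these 6 libraries. The level of CSF1R relative to ADGRE1 was 2.30 to 3.78 in the bulk libraries, where it was 7.12 to 30.6 in sorted sh-NC and 16.7 to 41.8 in sorted sh-B7-H3 (1). For CD14 relative to TYROBP, the adaptor of myeloid receptors, the bulk libraries gave 0.320 to 1.02, and the 6 sorted libraries with sh-NC or sh-B7-H3 (1) gave 20.8 to 127.

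**Figure D2:**
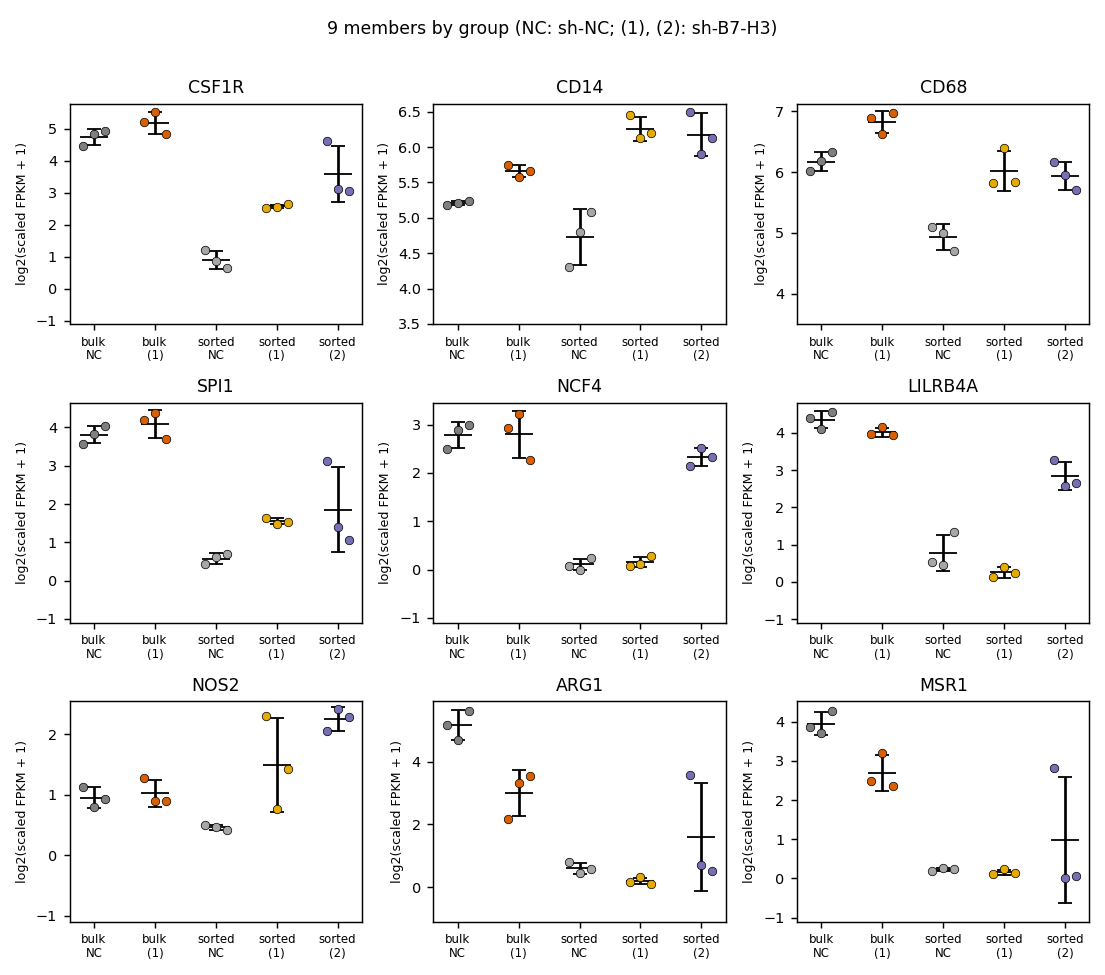
Each panel plots log2(scaled FPKM + 1) for 1 gene in the 5 groups, with 3 libraries as points and the mean with its SD as a bar. CSF1R, CD14, CD68 and SPI1 are higher in sorted sh-B7-H3 (1) than in sorted sh-NC, NCF4 and LILRB4A are high in sorted cells only with sh-B7-H3 (2), and ARG1 and MSR1 are lower in bulk sh-B7-H3 (1).

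The sorted cells labelled sh-B7-H3 (2) were compared with the same sorted sh-NC libraries, so the 2 comparisons share controls and are given side by side. Here 17 genes were tested and 8 were higher, where 11.7% of all 11243 genes were higher, and none was lower. Without replicate 1, and with a filter of 2 libraries chosen after the data were seen, 17 genes were tested and 9 were higher, where 10.5% of all genes were higher. These 9 were the 8 genes and SPI1. NCF4, NOS2 and FCGR2B were below 1 scaled FPKM in all sorted sh-NC libraries, and CSF1R, LILRB4A and LILR4B also needed the sh-B7-H3 (2) libraries to pass the filter, so 6 of the 8 entered through the group where they were high and the count is a description. With no filter 7 of the 41 genes passed, and the share of all genes in that fit is not given. CSF1R was 23.3, 7.75 and 7.32 in the 3 libraries (log2 2.69, SE 0.40, limma adjusted p = 0.00268; without replicate 1, log2 2.19). CD14 was 89.6, 58.6 and 68.9 (log2 1.45, SE 0.23, limma adjusted p = 0.00423; without replicate 1, log2 1.29), and CD68 was 70.4, 61.2 and 50.9 (log2 1.00, SE 0.17, limma adjusted p = 0.00497; without replicate 1, log2 0.89). SPI1 was 7.66, 1.64 and 1.08 (log2 1.28, SE 0.47, limma adjusted p = 0.107), and it passed without replicate 1 (log2 0.65, limma adjusted p = 0.0300). Markers of other cells moved here too. Of 6 epithelial markers 4 were higher (EPCAM, KRT18, KRT8 and KRT19), with sums of 1615 to 1791. CDH1 (log2 -0.58) and PAX8 (log2 -0.32) were lower without passing. Of 7 fibroblast markers tested, 3 were higher (COL1A1, COL3A1 and COL1A2), and the sums were 53.1 to 96.5 in sorted sh-NC, 67.3 to 93.7 in sorted sh-B7-H3 (1) and 127 to 179 in sorted sh-B7-H3 (2). LCK, the 1 T cell marker tested, was higher (log2 1.01, SE 0.24, limma adjusted p = 0.0223). It was below 1 scaled FPKM in all sorted sh-NC libraries and entered only through sh-B7-H3 (2), so this is a description. The fibroblast markers POSTN (log2 -0.46) and PDGFRB (log2 -0.18) were lower without passing. Without replicate 1, KRT8 and COL1A1 did not pass (limma adjusted p = 0.0859 and 0.0656), and POSTN was lower (log2 -1.01, limma adjusted p = 0.00438). The part of these cells was not tested.

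The other 5 genes were raised in all 3 libraries labelled sh-B7-H3 (2). NCF4, a cytosolic subunit (p40phox) of the NADPH oxidase, was 0.0606, 0 and 0.176 scaled FPKM in sorted sh-NC, 0.058, 0.0905 and 0.216 in sorted sh-B7-H3 (1) and 3.43, 4.74 and 4.05 in sorted sh-B7-H3 (2) (log2 2.23 against sh-NC, SE 0.14, limma adjusted p = 6.59e-05; without replicate 1, log2 2.32). The other oxidase genes in the list, NCF1 and CYBB, were at most 0.176 in replicates 2 and 3. LILRB4A, the inhibitory receptor gp49B, was 0.448, 0.356 and 1.53 in sorted sh-NC, 0.0842, 0.329 and 0.171 in sorted sh-B7-H3 (1) and 8.71, 4.99 and 5.29 in sorted sh-B7-H3 (2) (log2 2.07, SE 0.28, limma adjusted p = 0.00182; without replicate 1, log2 1.85). LILR4B, its neighbor on chromosome 10, was 1.31, 0.253 and 1.21, 0.11, 0.399 and 0.211 against 4.82, 3.74 and 3.44 in the same order (log2 1.42, SE 0.25, limma adjusted p = 0.00591; without replicate 1, log2 1.31). In GENCODE M21 transcripts, 39.8% of the 75-base windows of LILRB4A and 15% of those of LILR4B also occur in each other or in the gene model Gm49339, so their values are not wholly separate measurements.

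NOS2, inducible nitric oxide synthase, was 0.41, 0.381 and 0.34 in sorted sh-NC, 3.94, 0.692 and 1.68 in sorted sh-B7-H3 (1) and 3.14, 4.38 and 3.88 in sorted sh-B7-H3 (2) (log2 1.79 against sh-NC, SE 0.13, limma adjusted p = 0.000119; without replicate 1, log2 1.90). Its levels in bulk tumor, 1.2, 0.73 and 0.908 with sh-NC and 1.43, 0.856 and 0.862 with sh-B7-H3 (1), were below those with sh-B7-H3 (2). FCGR2B, the inhibitory IgG receptor, was 0.767, 0.691 and 0.77 in sorted sh-NC and 27.5, 3.24 and 4.01 in sorted sh-B7-H3 (2) (log2 2.28, SE 0.64, limma adjusted p = 0.0444; without replicate 1, log2 1.40 and limma adjusted p = 0.000671). That call was lost without any 1 of the sh-NC libraries (limma adjusted p = 0.0650 to 0.134). Its neighbor FCGR3, an activating IgG receptor, was 37.3, 0.514 and 0.587. It was high in replicate 1 alone.

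The sorted libraries of the 2 shRNAs were then compared with each other, a comparison chosen after the data were seen. Of 18 genes tested, 3 were higher with sh-B7-H3 (2), where 1.64% of all 11239 genes were higher, and none was lower. They were LILRB4A (log2 2.59, SE 0.20, limma adjusted p = 0.00163), NCF4 (log2 2.17, SE 0.13, limma adjusted p = 0.000831) and LILR4B (log2 2.01, SE 0.15, limma adjusted p = 0.00163). All 3 were below 1 scaled FPKM in every sorted sh-B7-H3 (1) library and entered the test only through sh-B7-H3 (2), so the count is a description and not support. With no filter 3 of the 41 genes passed, and the share of all genes in that fit is not given. Same-numbered libraries deviated together here, and with the replicate number as a block the 3 genes still passed, where 7.55% of all genes were higher. Without replicate 1 of sh-B7-H3 (2), and with a filter of 2 libraries, 18 genes were tested. Of these, 5 were higher (those 3 with CSF1R and FCGR2B) and 5 were lower (C1QA, C1QB, LYZ2, APOE and CD53), where 5.32% of all genes were higher and 3.68% were lower. FCGR2B, like those 3, needed the sh-B7-H3 (2) libraries to pass the filter. C1QA, C1QB and CD53 needed the sh-B7-H3 (1) libraries. They entered through the group where they were high, so both counts are a description and not support. APOE was 35, 52 and 33.5 with sh-B7-H3 (1) and 421, 13.7 and 11.9 with sh-B7-H3 (2), and its log2 difference went from 0.09 to -1.55 when replicate 1 was left out. With the filter kept at 3 libraries, 14 genes were tested without replicate 1 and 6 passed (CSF1R higher, and the same 5 lower).

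**Figure D3:**
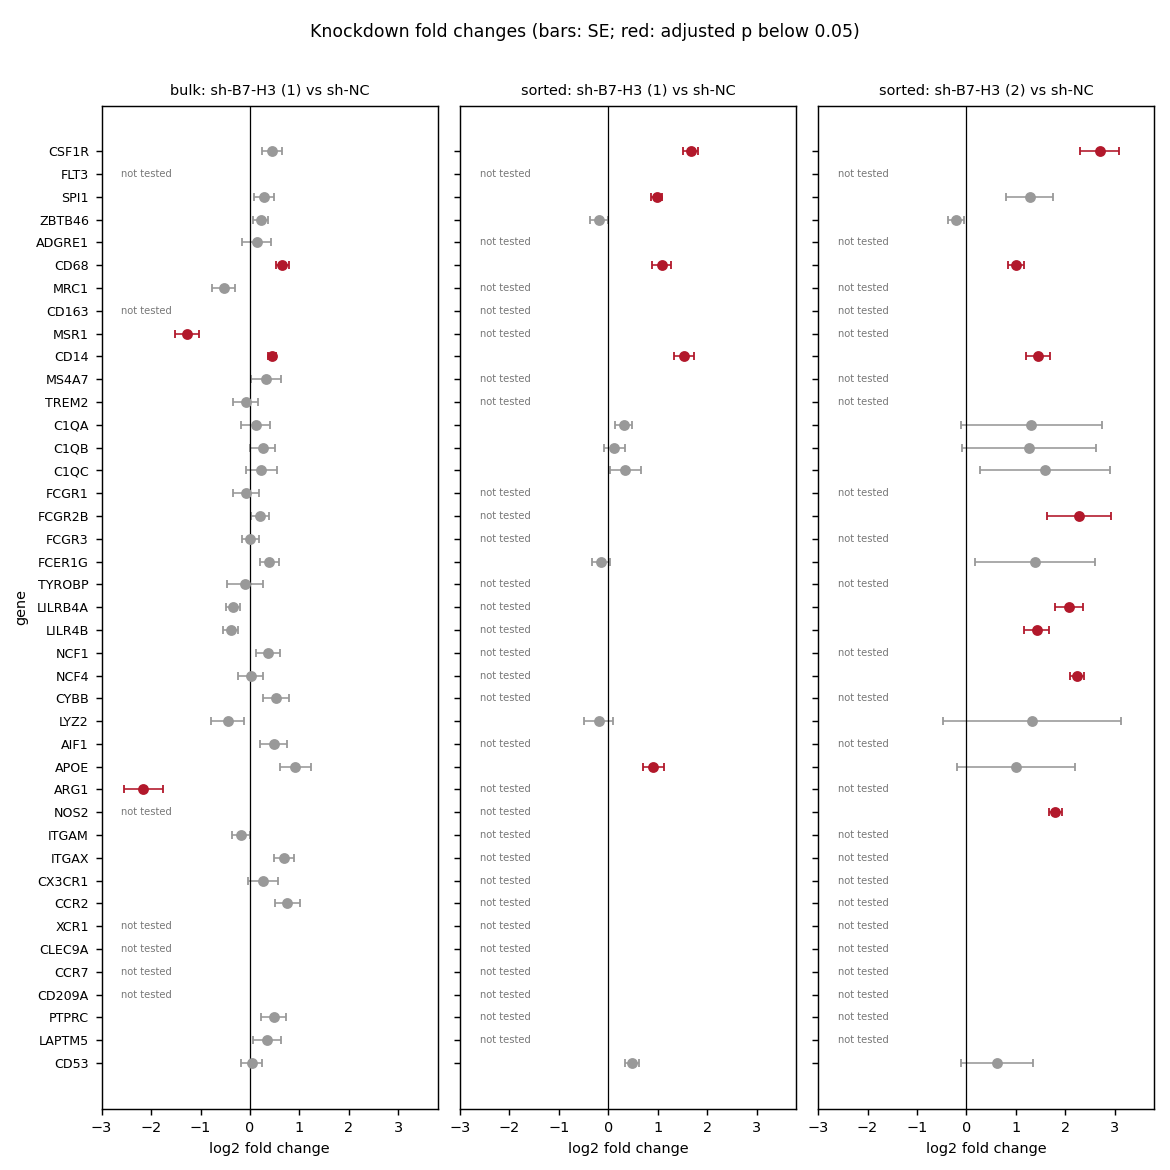
Each panel plots, by gene, the log2 fold change of an sh-B7-H3 group against its sh-NC control, with SE bars and genes at an adjusted p below 0.05 in red. In bulk tumor most genes sit near 0 and ARG1 lies at -2.16, and in sorted cells the red genes are all positive, with bars widened by replicate 1 in sorted sh-B7-H3 (2).

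Whether the sh-B7-H3 (1) difference changed between bulk tumor and sorted cells was tested as an interaction. None of the 35 genes tested passed in limma, where 0.464% of all 12062 genes did. At an unadjusted p below 0.05 there were 8 of the 35 genes, where 14.6% of all genes were. The lowest adjusted p was 0.0859 for CSF1R, with a difference of -1.22 (SE 0.27) on the log2 scale, the bulk difference minus the sorted difference. CD14 (-1.08, SE 0.24, limma adjusted p = 0.0899), MSR1 (-1.21, SE 0.29, limma adjusted p = 0.106) and ARG1 (-1.74, SE 0.45, limma adjusted p = 0.139) came next.

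Replicate 1 of sorted sh-B7-H3 (2) was then examined gene by gene. A gene was counted when it had at least 1 scaled FPKM there and at least 2 times the highest of the other 8 sorted libraries. By this rule 30 of the 41 genes were counted, where 3.76% of the 11522 genes at 1 scaled FPKM or more in that library were. Of the 30, 19 stayed below 1 scaled FPKM in all other sorted libraries. Near the limit, CSF1R was 3.01 times and SPI1 3.62 times the highest other library, and LILRB4A (1.65 times) and LILR4B (1.29 times) were just outside. CSF1R, FCGR2B and SPI1, which are among the 30, were also higher in replicates 2 and 3 than in sorted sh-NC. So were NCF1 (0.176 and 0.170) and CCR7 (0.0234 and 0.0764), at levels below 1 scaled FPKM. FLT3, XCR1, CLEC9A and CD163 did not reach 1 scaled FPKM.

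PTPRC was 12 scaled FPKM in it and at most 0.158 in the other 8. LYZ2 was 391 and at most 6.00 elsewhere, and TYROBP was 67.0 and at most 1.78. C1QA, C1QB and C1QC were 108, 95.6 and 80.4, and their ratios to each other were near those of bulk tumor (C1QA to C1QC 1.35, against 1.29 to 1.54 in bulk). Over the 30 genes the library held a median of 64.8% of the bulk sh-B7-H3 (1) mean, from 34.8% for APOE to 503% for CCR7. CCR7, which guides dendritic cells to lymph nodes, was 4.79 in it, 0.390 to 1.62 in the bulk libraries and at most 0.0841 in the other sorted libraries. CD209A, a lectin of dendritic cells and monocytes, was 1.52 in it and at most 0.0394 in the others. CLEC9A, of cross-presenting dendritic cells, was 0.193 in it and listed at 0 in the other 8.

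Markers of other cell types were high in the same library. For T cell and cytotoxic markers the summed level was 36.7 scaled FPKM and 0.470 to 2.24 in the remaining 8 sorted libraries. The B cell markers came to 11.4 against 0.176 to 1.00, the neutrophil markers to 11.8 against 0.117 to 2.40, and the endothelial markers to 22.3 against 0.301 to 0.731. None of the 14 T cell or 5 B cell markers in the table was at 0 in it. The epithelial markers summed to 1791, against 817 to 1629.7 in the others. Their part in its macrophage gene levels was not tested.

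**Figure D4:**
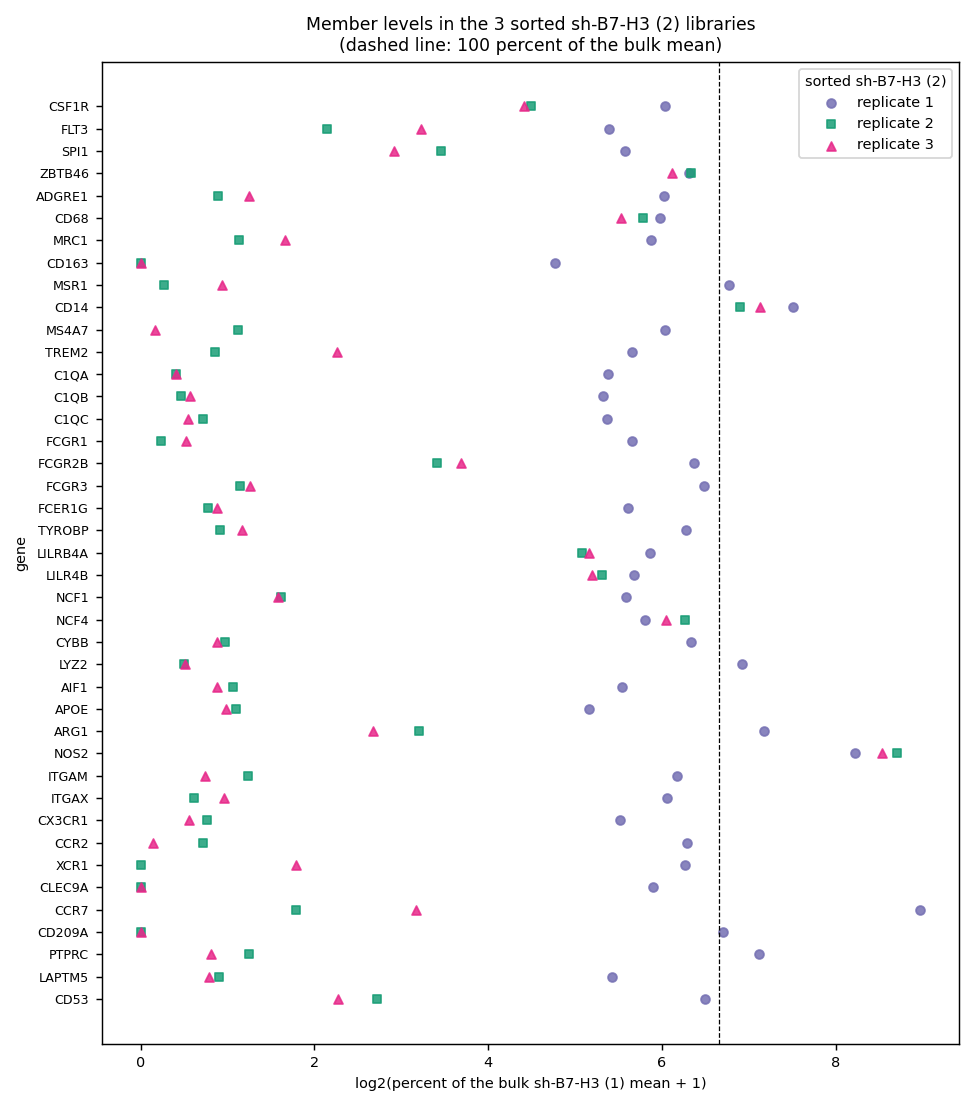
The plot gives each gene in the 3 sorted sh-B7-H3 (2) libraries as log2(percent of the bulk sh-B7-H3 (1) mean + 1), with a dashed line at 100 percent. Replicate 1 lies right of the others for most genes, and the 3 replicates lie together for NCF4, LILRB4A, LILR4B, NOS2, CD14, CD68 and ZBTB46.

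Among the 59 further macrophage and dendritic cell genes, 13 were tested in each sorted comparison. With sh-B7-H3 (1), MPEG1, CSF2RB, CTSS and PLAC8 were higher and GPNMB and CD300LB were lower. With sh-B7-H3 (2), the same 4 genes and SIRPA were higher, and GPNMB, CD300LB and MAF were lower. These 8 genes also passed without replicate 1, with log2 fold changes from 0.98 for SIRPA to 2.73 for CTSS and from -0.78 for MAF to -1.09 for CD300LB. CTSS, the lysosomal protease cathepsin S of antigen-presenting cells, was 5.10, 6.13 and 5.69 scaled FPKM in sorted sh-NC, 116.7, 74.9 and 66.9 in sorted sh-B7-H3 (1), and 258.4, 43.7 and 42.0 in sorted sh-B7-H3 (2). All of the libraries labelled with an shRNA against B7-H3 lay above the controls. GPNMB, a glycoprotein of macrophages and of pigmented cells, was 85.8, 85.6 and 72.3 in sorted sh-NC, 29.3, 45.7 and 43.8 in sorted sh-B7-H3 (1), and 17.4, 45.2 and 43.8 in sorted sh-B7-H3 (2). It fell in bulk tumor as well (log2 -1.26, SE 0.23, limma adjusted p = 0.0132). CX3CL1 rose in both sorted comparisons, from 12.3, 8.73 and 8.87 with sh-NC to 31.7, 27.7 and 29.1 with sh-B7-H3 (1) (log2 1.49, SE 0.16, limma adjusted p = 0.000478).

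Levels of several dendritic cell genes were low. XCR1, CLEC9A, CCR7 and CD209A, with FLT3, stayed below 3 scaled FPKM in all bulk libraries. CD209A was 0.194, 0.476 and 0.475 in bulk sh-NC and 1.12, 2.51 and 0.785 in bulk sh-B7-H3 (1). XCR1, the receptor of cross-presenting dendritic cells for XCL1, was 0.0417, 0.0763 and 0.0879 against 0.328, 0.442 and 0.17, and CLEC9A was 0.116, 0.074 and 0.0775 against 0.29, 0.57 and 0.13. FLT3 was 0.0308, 0.117 and 0.0947 against 0.265, 0.68 and 0.0807. CCR7 was 0.52, 0.39 and 0.554 against 0.659, 1.62 and 0.583. For CD209A, XCR1, CLEC9A and CCR7 the 3 bulk sh-B7-H3 (1) libraries lay above the 3 sh-NC libraries, and FLT3 overlapped. These levels are too low for the test, and the share of all genes without overlap was not counted.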

How the data were processed

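The authors deposited FPKM for 24917 entries in 15 libraries, 1 column per library, in a table named for gene counts. The labels' processing notes name the build mm10. The aligner and annotation are not given in the sources used here. After 26 date-like symbols were left out, each library was rescaled by its median ratio over 9872 genes. A pseudocount of 1 was added, and the log2 values were compared with limma 3.58.1 (R 4.3.3, mean-variance trend, Benjamini-Hochberg adjustment over all genes tested) where at least 3 libraries of a comparison reached 1 scaled FPKM. Fold changes are on the log2(scaled FPKM + 1) scale, which understates changes of low genes. A filtered log2 table was not used, and 0 columns of per-sample values were left unmatched. Any gene of the list may be named by role. Fold changes are given for genes at an adjusted p below 0.05 (at most 8 in each direction) and for CSF1R, ADGRE1, PTPRC, CD68, C1QA, FLT3, APOE and ARG1. The other genes given with values were chosen after their values were seen. Overlap between groups is described for single genes, and the share of all genes without overlap was not counted. Members, lists and tests were chosen with earlier results of these data known. The code was tested on simulated data. Python 3.11.15 and matplotlib 3.10.9 were used.

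Alternatives were FPKM as deposited, a pseudocount of 0.1, no filter, an absolute log2 fold change above 1, the replicate number as a block, all groups in 1 fit, and leaving out each replicate. A filter of 2 libraries with each replicate left out was added after seeing the data. Counts with no filter or a replicate left out describe the listed genes only, where no share over all genes is printed. Same-numbered libraries of the 2 sorted knockdown groups deviated together (Pearson's r of 0.316, 0.330 and 0.357 across genes, which are not independent). No label says that the numbers pair samples. In the other comparisons r ran from -0.538 to 0.412, and in some of them replicate 1 alone was matched best by its own number.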

Additional observations from a re-analysis of the deposited data

Results flagged for a closer look

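The effects of the 2 shRNAs in sorted cells, each against the same sh-NC libraries, differed in 3 of 18 genes tested by the direct test of sh-B7-H3 (2) against sh-B7-H3 (1) in limma, a comparison chosen after the data were seen, where 1.64% of all genes were higher (7.55% with the replicate block). The 3 genes were below 1 scaled FPKM in every sorted sh-B7-H3 (1) library and entered the test only through sh-B7-H3 (2). LILRB4A differed by 2.59, NCF4 by 2.17 and LILR4B by 2.01 on the log2 scale. The differences were 2.37, 2.27 and 1.89 without replicate 1 of sorted sh-B7-H3 (2).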

How the results depend on the processing

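Of the 4 genes called in bulk tumor, 2 were called with all groups in 1 fit and 2 at an absolute log2 fold change above 1. Of the 5 called in sorted cells with sh-B7-H3 (1), 3 were called with each of these settings. The interaction gave 2 genes (MSR1 and ARG1) with FPKM as deposited. With 1 replicate left out, the counts were 1 to 11 in bulk tumor, 3 to 6 for sorted sh-B7-H3 (1), 5 to 9 for sorted sh-B7-H3 (2), 11 to 33 for bulk against sorted sh-NC, 11 to 34 for bulk against sorted sh-B7-H3 (1), 0 to 1 for the interaction and 0 to 10 between the shRNAs. The low ends of 11, and of 0 between the shRNAs, arose because 2 libraries of a group cannot pass a filter of 3 on their own. With the replicate block the counts were 3, 4, 7, 32, 33, 0 and 3 in this order. Between the shRNAs, where same-numbered libraries deviated together, the calls over all genes went from 382 to 1864.

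FPKM as deposited moved the median of all genes from 0.0015 to 0.17 on the log2 scale for sorted sh-B7-H3 (1) and from 0.0097 to 0.21 for sorted sh-B7-H3 (2). Among the genes named, signs turned only for values that were not called with all libraries. With 1 replicate left out, log2 values in bulk tumor ran from -0.11 to 0.47 for ADGRE1 and from -0.13 to 0.45 for C1QA. In sorted sh-B7-H3 (2) they ran from -0.65 to 2.29 for C1QA and from -0.65 to 1.87 for APOE, the low ends being without replicate 1. In the interaction they ran from -0.28 to 0.29 for ADGRE1, from -0.45 to 0.13 for C1QA and from -0.27 to 0.26 for APOE, and APOE was -0.14 with FPKM as deposited and -0.014 with a pseudocount of 0.1, where PTPRC was -0.12. Read totals were not known, so the precision of levels below 1 scaled FPKM is not known.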
